A study of Mus musculus with 10 samples.

Results

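Ceramide sits at the centre of sphingolipid metabolism, and 10 enzymes that release it, break it down or turn it into other lipids were followed here in mouse islets: Asah1, Asah2, Acer3, Sphk1, Sphk2, Sgpl1, Smpd1, Sgms1, Sgms2 and Ugcg. They were chosen by symbol, and each had 1 row among the 47340 genes of the deposited table. The table held polyA RNA sequencing of whole islets, a mixture of β cells with other endocrine, vascular and immune cells, from 5 control mice (FL) and 5 βFIT2KO mice (KO). All were 12-week-old male mice on chow, and the islets were kept in culture overnight before RNA extraction. FL mice carried the floxed FIT2 alleles (FIT2 fl/fl) and their libraries bear the genotype label wild type. KO mice carried the floxed alleles with a Cre transgene driven by the rat insulin promoter, which is active in β cells, so that Fitm2, the gene of FIT2, is meant to be deleted there and kept in the other islet cells. Islets with the Cre transgene alone were not analysed here, so loss of Fitm2 and presence of Cre cannot be told apart in what follows. The study asks how loss of FIT2, a lipid droplet protein of the endoplasmic reticulum, alters β cells, and ceramide handling is one of its themes.

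Ceramide is a sphingoid base joined to a fatty acid. Ceramidases split it into sphingosine and the fatty acid, sphingosine kinases phosphorylate sphingosine to sphingosine-1-phosphate (S1P), and S1P lyase cleaves S1P, which is the way out of the pathway. Sphingomyelin synthases consume ceramide to make sphingomyelin, sphingomyelinases release ceramide from sphingomyelin, and glucosylceramide synthase opens the route to glycosphingolipids. In β cells, ceramide is best known as a mediator of toxicity from saturated fatty acids.

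Of the 10 enzymes, 2 fell in KO islets, the kinase Sphk2 and the lyase Sgpl1, and 2 rose, the neutral ceramidase Asah2 and the sphingomyelin synthase Sgms1. The mean changes of these 4 were modest, from 15.4% lower to 38.5% higher, and 6 enzymes did not pass the test. A gene was called when its adjusted p was at most 0.05 in limma, a linear model fitted across all 13065 genes whose average reached 1 FPKM (fragments per kilobase of transcript, scaled to library size) in either group, on the scale log2(FPKM + 1) with Benjamini-Hochberg adjustment. The share of members called, 4 of 10, stands beside 25.5% of all tested genes called, 16.5% as lower (2 members) and 9.05% as higher (2 members). Lower genes made up 64.5% of all calls in this fit and 31.0% to 53.3% under the 4 other scalings of the libraries, of which upper quartile rescaling moved the median of all genes most, up by 0.10, so that falls come out smaller and rises larger with it. Under upper quartile rescaling 0 members were called lower and 2 higher, and the Sphk2 call was lost under each of the 4. Leaving out 1 mouse gave 1 to 5 members called. The median log2 fold change of KO against FL was 0.02 over the members and -0.06 over all tested genes. All fold changes given here are on this log2(FPKM + 1) scale, on which the change of a low gene such as Sphk1 comes out too small.

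Fitm2 itself was read at 16.9, 30.5, 16.5, 37.1 and 15.5 FPKM in the FL mice and 4.56, 4.30, 7.75, 9.13 and 8.998 FPKM in the KO mice. No KO value reached the lowest FL value, with a log2 fold change of -1.58 (SE 0.28, n = 5 per group, limma adjusted p = 0.00228). Library depth, estimated relative to FL replicate 1, was 1.0 to 2.41 in FL and 1.52 to 2.06 in KO. Of 9 marker lists, 3 had summed levels that did not overlap and were higher in KO: macrophage (133.7 to 158.9 FPKM in FL, 189.9 to 228.2 FPKM in KO, 3 of 7 tested genes higher), endothelial (163.4 to 189.02 against 197.2 to 259.3 FPKM, 5 of 8 higher) and mesenchyme (12.2 to 20.8 against 24.6 to 34.3 FPKM, 5 of 5 higher). The β cell list summed to 2273 to 2844 FPKM in FL and 1511 to 2124 FPKM in KO with 6 of 7 tested genes lower, while Ins1, Ins2 and Iapp, its defining markers, were listed at 0 in every library. The α cell list did not overlap either, at 548 to 752 FPKM in FL and 344 to 502 FPKM in KO with 2 of 5 tested genes lower, and Gcg was listed at 0. Acinar markers were present in all libraries, at 4310 to 11394 FPKM in FL and 2835 to 21080 FPKM in KO. The delta list ran from 4958 to 5850 FPKM in FL and 3991 to 5337 FPKM in KO, the PP list from 2811 to 16923 and 8815 to 12871 FPKM, and the duct list from 605 to 670.2 and 525 to 653 FPKM. The acinar, delta, PP and duct sums overlapped between the groups. The macrophage, endothelial, mesenchyme, β cell and α cell lists moved with the groups, and so with the members called, and their part in those changes was not tested. In whole islets, fewer cells of a type and less RNA per cell cannot be told apart.

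Levels of the enzymes spanned a wide range, and because FPKM is scaled by transcript length they can be set side by side. In FL islets Asah1, the lysosomal acid ceramidase, was highest at 273.1 ± 28.3 FPKM (SD, n = 5), above 97.5% of tested genes. Smpd1 and Sgpl1 followed with ranges that overlapped each other, then Sgms2 and Sgms1, also overlapping. Sphk2, Asah2 and Ugcg formed a lower group in which each range overlapped the next, and Acer3 at 4.50 ± 0.37 FPKM and Sphk1 at 0.79 ± 0.51 FPKM came last, each apart from its neighbour. In KO islets the order changed in 2 places, with Sgms1 above Sgms2 and Asah2 above Sphk2, and within both of those pairs the ranges overlapped. Smpd1 and Sgpl1, which overlapped in FL, had ranges that did not overlap in KO.

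**Figure D1:**
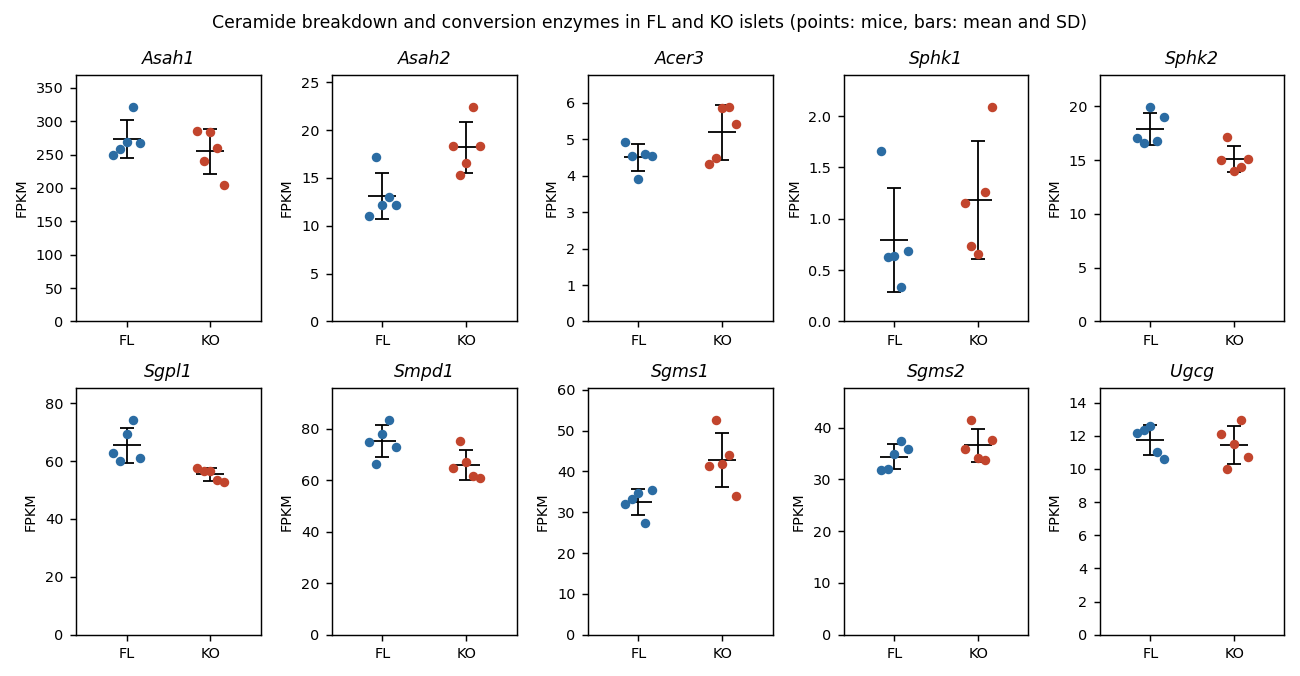
Level of each of the 10 enzymes (vertical axes, FPKM, each starting at 0) in the 5 FL and 5 KO mice. Points are mice, horizontal bars are means and whiskers are SD. Sgpl1 has no overlap between the groups, the 4 highest KO values of Sgms1 lie above all FL values, and Sphk1 lies near 1 FPKM.

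The ceramidases were led by a lysosomal enzyme that did not pass the test, while the neutral enzyme rose. Asah2, neutral ceramidase, which acts at the plasma membrane, lies at chr19:31982597-32108211 on the minus strand (GRCm38). It measured 11.1, 17.2, 12.2, 13.02 and 12.2 FPKM in FL replicates 1 to 5 and 18.3, 15.3, 16.6, 22.4 and 18.3 FPKM in KO replicates 1 to 5. FL replicate 2 was high and lay above KO replicates 2 and 3, so the groups overlapped, while the other 4 FL values were below every KO value. The mean rose by 38.5%, from 13.1 ± 2.40 to 18.2 ± 2.69 FPKM (± SD, 5 mice each), and the log2 fold change was 0.45 (SE 0.12, 95% interval 0.18 to 0.71, limma adjusted p = 0.0200, exact permutation p = 0.0238). Leaving out any 1 mouse kept Asah2 past the threshold, with limma adjusted p between 0.00395 and 0.0482.

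Asah1 (chr8:41340197-41374773, minus strand) measured 249.2, 257.8, 269.4, 321.5 and 267.7 FPKM in FL and 285.4, 240.6, 284.1, 260.2 and 204.7 FPKM in KO. The groups overlapped widely, FL replicate 4 and KO replicate 5 were the extremes, and the log2 fold change was -0.10 (95% interval -0.32 to 0.12, limma adjusted p = 0.482). Acer3, an alkaline ceramidase of the endoplasmic reticulum and Golgi (chr7:98206389-98321208, minus strand), measured 4.92, 4.53, 3.91, 4.60 and 4.55 FPKM in FL and 4.31, 4.48, 5.85, 5.89 and 5.41 FPKM in KO. For Acer3, 3 of 5 KO values were above the FL range and the others lay inside it, with a log2 fold change of 0.16 (95% interval -0.03 to 0.36, limma adjusted p = 0.203). The share of Asah2 in the summed FPKM of the 3 ceramidases was 4.54% ± 0.92 in FL and 6.60% ± 1.20 in KO (SD, n = 5), so that Asah1 made up most of the ceramidase mRNA in both groups. Within a library, the log2 ratio of Asah1 to Asah2 was 4.29 ± 0.27 in FL and 3.74 ± 0.27 in KO, lower than the FL mean in 5 of 5 KO mice, a difference of -0.55 with an exact permutation p of 0.0317 and a Benjamini-Hochberg adjusted p of 0.0794 over the 5 ratios compared. With each mouse left out in turn the exact adjusted p lay between 0.0661 and 0.139, except without FL replicate 2, the mouse with the highest Asah2 in FL, where the difference was -0.66 (exact adjusted p = 0.0198).

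The sphingosine kinases and the lyase handle sphingosine after ceramide has been split. Sphk2, the more abundant kinase in these islets, lies at chr7:45709467-45718002 on the minus strand and measured 17.04, 16.6, 19.96, 16.8 and 19.05 FPKM in FL and 15.01, 17.2, 13.995, 14.4 and 15.1 FPKM in KO. KO replicate 2 lay inside the FL range and the other 4 KO values were below every FL value. The mean fell by 15.4%, from 17.9 ± 1.52 to 15.1 ± 1.22 FPKM (± SD, 5 mice each), and the log2 fold change was -0.23 (SE 0.07, 95% interval -0.38 to -0.08, limma adjusted p = 0.0329, exact permutation p = 0.0317). This call was lost under each of the 4 other scalings of the libraries, with limma adjusted p from 0.0581 under quantile normalization to 0.332 under upper quartile rescaling, where the log2 fold change was -0.12, without the filter on low values (0.0565), and without any 1 of FL replicates 3 and 5 and KO replicates 1, 3, 4 and 5. Sphk2 also shares 539 exonic bases (13.0% of its exonic length) with Dbp, a gene on the opposite strand that encodes a circadian transcription factor, and 373 bases (8.97%) with Rpl18, a ribosomal protein gene. Dbp measured 55.3 to 63.1 FPKM in FL and 28.5 to 54.5 FPKM in KO with no overlap (log2 fold change -0.58, limma adjusted p = 0.0120), and Rpl18 measured 413.3 to 438.5 and 363.995 to 426.1 FPKM (log2 fold change -0.15, limma adjusted p = 0.0594). The library kit keeps strand, but whether the counting used it is not given in the sources used here, and the part of these neighbours in the Sphk2 values was not tested.

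Sphk1 (chr11:116530925-116536674, plus strand), the other kinase, measured 1.66, 0.63, 0.63, 0.34 and 0.69 FPKM in FL and 1.16, 0.74, 0.66, 1.26 and 2.09 FPKM in KO. These levels rest on an estimated 13 to 117 fragments per library, and Sphk1 entered the test only through its KO mean of 1.18 FPKM. FL replicate 1 was above 4 of the 5 KO values, and the log2 fold change was 0.29 with a wide interval (-0.18 to 0.75, limma adjusted p = 0.350). Sphk1 made up 4.22% ± 2.70 of kinase FPKM in FL and 7.20% ± 3.25 in KO (SD, n = 5). The log2 ratio of Sphk1 to Sphk2 was -3.43 ± 0.40 in FL and -2.92 ± 0.39 in KO, a difference of 0.51 with an exact permutation p of 0.0794 and an adjusted p of 0.0992. With each mouse left out in turn the exact adjusted p lay between 0.0794 and 0.198, except without FL replicate 1, the FL mouse with the highest Sphk1, where the difference was 0.68 (exact adjusted p = 0.0397). At so few fragments no change is read from this ratio.

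Sgpl1, S1P lyase, was the only one of the 10 enzymes with complete separation of FL and KO values (19.1% of all tested genes did not overlap). It lies at chr10:61098642-61147703 on the minus strand and measured 62.9, 60.004, 69.3, 74.2 and 61.02 FPKM in FL and 57.7, 56.5, 56.5, 53.5 and 52.8 FPKM in KO. All KO values lay below the lowest FL value, and the KO mice were close together. The mean fell by 15.4%, from 65.5 ± 6.05 to 55.4 ± 2.14 FPKM (± SD, 5 mice each), and the log2 fold change was -0.23 (SE 0.06, 95% interval -0.37 to -0.09, limma adjusted p = 0.0202). The exact permutation p was 0.00794, the smallest that 5 against 5 mice can give. In limma the adjusted p rose to 0.0968 under upper quartile rescaling, where the log2 fold change was -0.12, to 0.0522 without FL replicate 3 and to 0.0506 without KO replicate 4. Set against the kinases, the lyase differed between the groups by less than the spread between mice. The log2 ratio of Sgpl1 to Sphk1 and Sphk2 together was 1.76 ± 0.18 in FL and 1.71 ± 0.13 in KO, a difference of -0.05 (exact permutation p = 0.675).

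On the sphingomyelin side, the synthase Sgms1 rose while the sphingomyelinase Smpd1 was lower on average and missed the threshold. Sgms1, the Golgi sphingomyelin synthase (chr19:32122727-32389714, minus strand), measured 31.99, 33.4, 34.7, 27.4 and 35.4 FPKM in FL and 41.4, 52.6, 41.9, 44.1 and 33.9 FPKM in KO. KO replicate 5 lay inside the FL range and the other 4 KO values were above every FL value. The mean rose by 31.3%, from 32.6 ± 3.19 to 42.8 ± 6.70 FPKM (± SD, 5 mice each), and the log2 fold change was 0.37 (SE 0.11, 95% interval 0.14 to 0.61, limma adjusted p = 0.0253, exact permutation p = 0.0238). In limma the adjusted p was 0.0520 without the filter on low values, 0.0552 without FL replicate 4 and 0.0577 without KO replicate 4. Sgms1 shares 10 exonic bases with the antisense transcript 2700046G09Rik, which measured 2.46 to 3.72 FPKM in FL and 2.34 to 2.93 FPKM in KO.

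Sgms2 (chr3:131318985-131491411, minus strand), the synthase also found at the plasma membrane, measured 31.8, 31.97, 34.97, 37.4 and 35.97 FPKM in FL and 35.9, 41.5, 34.1, 33.8 and 37.6 FPKM in KO. Its groups overlapped, with a log2 fold change of 0.08 (95% interval -0.07 to 0.23, limma adjusted p = 0.404). Sgms1 made up 48.6% ± 3.59 of the summed synthase FPKM in FL and 53.7% ± 3.70 in KO (SD, n = 5). The log2 ratio of Sgms1 to Sgms2 was -0.08 ± 0.20 in FL and 0.21 ± 0.21 in KO, above the FL mean in 4 of 5 KO mice, a difference of 0.29 with an exact permutation p of 0.0476 and an adjusted p of 0.0794. With each mouse left out in turn the exact adjusted p lay between 0.0694 and 0.169, except without KO replicate 5, the KO mouse with the lowest Sgms1, where the difference was 0.38 (exact adjusted p = 0.0198).

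Smpd1, the lysosomal acid sphingomyelinase that releases ceramide from sphingomyelin, lies at chr7:105554360-105558389 on the plus strand. It measured 74.99, 66.4, 78.1, 83.3 and 72.8 FPKM in FL and 64.8, 75.4, 66.9, 61.4 and 60.8 FPKM in KO. FL replicate 2 was the lowest FL value and KO replicate 2 the highest KO value, and the other 4 FL values lay above the other 4 KO values. The log2 fold change was -0.19 (SE 0.07, 95% interval -0.35 to -0.02, limma adjusted p = 0.0868, exact permutation p = 0.0635), and in limma the adjusted p was 0.0440 without FL replicate 2 and 0.0263 without KO replicate 2. These were the 2 of 10 fits with a mouse left out that passed, and limma adjusted p reached 0.178 in the others. Under upper quartile rescaling the log2 fold change was -0.07 (limma adjusted p = 0.402). Within each library, however, Smpd1 set against the summed synthases separated the groups. The log2 ratio was 0.23, 0.02, 0.16, 0.36 and 0.03 in FL and -0.25, -0.32, -0.18, -0.34 and -0.23 in KO. Smpd1 thus exceeded the 2 synthases together in 5 of 5 FL mice, 1.02 to 1.28 times, and was below them in 5 of 5 KO mice, 0.79 to 0.88 times, on the scale of FPKM + 1. The difference was -0.42 (0.16 ± 0.14 in FL and -0.26 ± 0.06 in KO, SD), with an exact permutation p of 0.00794 and an adjusted p of 0.0397 over the 5 ratios. A ratio within a library is nearly free of how that library is scaled, and it shows unequal change of its parts, not which of them changed.

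**Figure D2:**
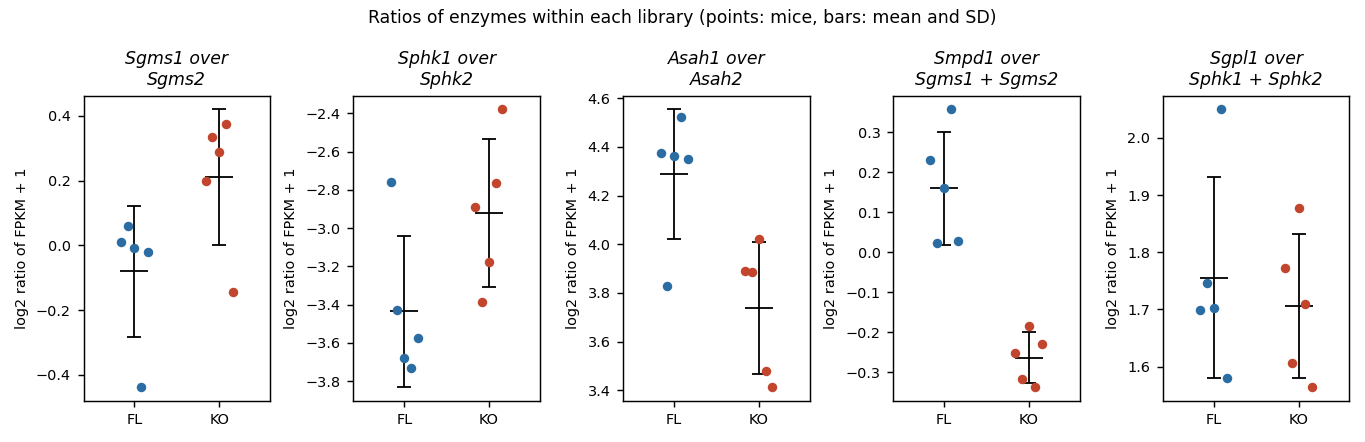
Log2 ratio of enzyme levels within each library (vertical axes, FPKM + 1) for 5 pairs of enzymes or sums of enzymes in FL and KO islets. Points are mice, horizontal bars are means and whiskers are SD. Smpd1 over the summed sphingomyelin synthases is 0.02 to 0.36 in FL and -0.34 to -0.18 in KO, the 1 ratio of 5 without overlap.

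Ugcg (chr4:59189257-59222833, plus strand), glucosylceramide synthase, showed the smallest difference of the 10 in this fit. It measured 12.2, 12.4, 12.6, 11.04 and 10.6 FPKM in FL and 12.1, 10.03, 11.5, 12.95 and 10.7 FPKM in KO. The ranges covered each other almost entirely, with a log2 fold change of -0.03 (95% interval -0.20 to 0.13, limma adjusted p = 0.768), and its sign changed under all 4 other scalings of the libraries. Across the 10 members the interval was narrowest for Sgpl1 and widest for Sphk1, the member with the lowest level.

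**Figure D3:**
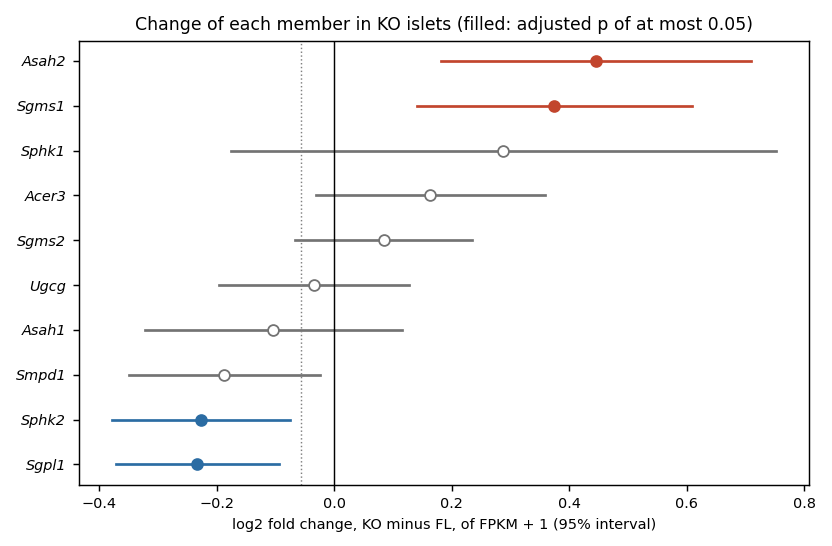
Log2 fold change of each enzyme in KO against FL islets (horizontal axis, log2 of FPKM + 1) with its 95% interval from limma. Filled points passed an adjusted p of at most 0.05, and the dotted line is the median of all tested genes at -0.06. Asah2 and Sgms1 lie to the right at 0.45 and 0.37, and Sphk2 and Sgpl1 to the left at -0.23 each.

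Asah2 and Sgms1, the members that rose, are neighbours. They lie on the same strand of chromosome 19 with 14515 bp between them (chr19:32108212-32122726). This position was noticed after their values were seen, and the stretch then drawn around them, from Prkg1 to Atad1, held 10 tested genes. Asah2 and Sgms1 were the 2 called higher, Cstf2t, A1cf and Papss2 were called lower, and 5 were not called. Of all tested genes, 9.05% were called higher and 16.5% lower. Because the stretch was drawn around 2 called genes, its count of calls says nothing about the region. On the far side of Asah2, A1cf, an RNA-binding protein gene on the plus strand, had a log2 fold change of -0.26 (limma adjusted p = 0.0268), a call kept in 11 of 22 alternative fits with adjusted p up to 0.235. Papss2, which makes the sulfate donor used for sulfated lipids and glycans, fell from 272.8 ± 13.8 to 197.2 ± 30.2 FPKM (± SD), and its log2 fold change was -0.48 (limma adjusted p = 0.00358).

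**Figure D4:**
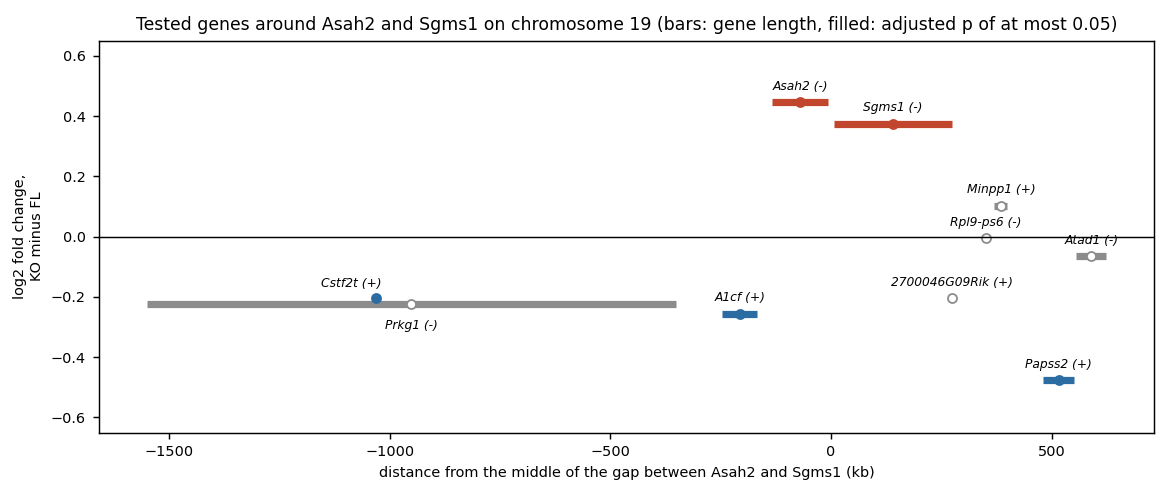
Log2 fold change in KO against FL islets (vertical axis) of the 10 tested genes around Asah2 and Sgms1, placed by distance in kilobases from the middle of the gap between them. Bars give gene length, signs the strand, and filled points an adjusted p of at most 0.05 in limma. Asah2 and Sgms1 are the 2 genes called higher, and 3 genes called lower lie on either side.

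The start regions of the 4 called members are shown because these are the members that passed the test. Sequences are from RefSeq (GRCm38.p6), 200 bases before to 30 after the annotated start, all on the minus strand and written 5' to 3', with matches to the motifs searched in capitals. Asah2 is at chr19:32103111-32103340, Sgms1 (start 1 of 4) at chr19:32388483-32388712, Sphk2 (start 1 of 2) at chr7:45717973-45718202 and Sgpl1 at chr10:61147655-61147884. The RefSeq starts of Asah2 and Sgms1 printed here lie inside the GENCODE gene spans from which the gap between them was measured.
Asah2: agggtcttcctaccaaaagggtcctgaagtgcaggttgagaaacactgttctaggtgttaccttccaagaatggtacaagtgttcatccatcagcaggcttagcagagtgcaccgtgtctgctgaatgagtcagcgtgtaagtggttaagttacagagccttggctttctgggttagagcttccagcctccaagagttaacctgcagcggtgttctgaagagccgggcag
Sgms1: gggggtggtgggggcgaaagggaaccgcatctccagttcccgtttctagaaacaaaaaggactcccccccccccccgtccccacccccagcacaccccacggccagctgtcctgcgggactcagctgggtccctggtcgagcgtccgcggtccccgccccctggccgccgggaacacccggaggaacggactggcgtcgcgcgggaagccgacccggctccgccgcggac
Sphk2: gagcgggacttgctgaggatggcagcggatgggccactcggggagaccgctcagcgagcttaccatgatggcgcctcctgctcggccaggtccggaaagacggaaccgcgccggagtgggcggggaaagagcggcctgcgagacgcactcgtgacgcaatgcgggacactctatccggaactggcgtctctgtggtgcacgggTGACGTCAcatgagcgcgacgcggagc
Sgpl1: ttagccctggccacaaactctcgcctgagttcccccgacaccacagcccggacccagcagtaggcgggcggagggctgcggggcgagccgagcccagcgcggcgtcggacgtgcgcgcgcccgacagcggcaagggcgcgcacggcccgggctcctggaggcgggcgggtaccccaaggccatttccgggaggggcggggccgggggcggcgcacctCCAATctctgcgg
Of the members, 9 of 10 had a start region in the table, without Asah1. The motifs searched on both strands of 300-base windows, 250 before to 50 after each start, were CACGTG, TGACGTCA, TTGCATCA and CCAAT, and CACGTG and TGACGTCA read the same on both strands. They were found in 7.15%, 1.79%, 0.895% and 37.4% of the 32851 windows of all genes. The Asah2 window held none of them, and the first Sgms1 start held none. TGACGTCA, the full cAMP response element, began 3 bases after the first Sphk2 start and was found in no other member window. CCAAT began 17 bases after the Sgpl1 start and was also found, on either strand, in windows of Sphk1, Sphk2, Smpd1, Sgms1 and Sgms2. CACGTG was found in windows of Sphk1 and Sgms2, and TTGCATCA in none of the members. A match describes the letters in the window only.

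Other sphingolipid genes, listed by their step in the pathway, were 47 in 4 lists, of which 39 were tested, 9 fell, 7 rose and 23 did not pass (41.0% called, against 25.5% of all tested genes). The balance turned with some scalings, to 7 lower and 10 higher with median ratio, 6 and 10 with upper quartile and 7 and 9 with quantile rescaling. Rescaling to the same sum (TPM) did not turn it, with 8 lower and 7 higher. Of the 39 tested genes, 10 had no overlap, against 19.1% of all tested genes. Their median log2 fold change was 0.01. Among the other ceramidases, sphingomyelinases, kinases and phosphatases, 5 of 13 tested fell and 3 rose (61.5% called, median -0.06). Smpd2, a neutral sphingomyelinase, fell from 18.1 ± 1.04 to 13.3 ± 1.24 FPKM (± SD, 5 mice each) without overlap, a fall of -0.42 on the log2 scale (limma adjusted p = 0.00104). Smpd3 and Smpd4, the other neutral enzymes measured above 1 FPKM, had log2 fold changes of -0.06 and -0.04 (limma adjusted p = 0.562 and 0.863). Cerk, ceramide kinase, fell from 43.4 ± 1.82 to 35.4 ± 2.02 FPKM without overlap (log2 fold change -0.29, limma adjusted p = 0.00218), and the related gene Cerkl fell with a log2 fold change of -0.22 (limma adjusted p = 0.0101). The Cerkl call was lost with median ratio, quantile and upper quartile rescaling (limma adjusted p = 0.0818, 0.0659 and 0.261), the last with a log2 fold change of -0.11.

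The S1P phosphatases act opposite to the kinases, and 1 of the pair fell. Sgpp2 measured 20.2 to 20.8 FPKM in FL and 13.7 to 16.9 FPKM in KO, with a log2 fold change of -0.43 (limma adjusted p = 0.000385), while Sgpp1, at 57.6 ± 6.68 and 54.3 ± 7.72 FPKM (SD, n = 5), had one of -0.09 (limma adjusted p = 0.580). Of the lipid phosphate phosphatases in the same list, which act on several lipids, Plpp1 and Plpp3 rose with log2 fold changes of 0.33 and 0.46 (limma adjusted p = 0.0176 and 0.00275) and Plpp2 fell with one of -0.30 (limma adjusted p = 0.00716), a call lost with upper quartile rescaling (0.109). Acer2, a Golgi alkaline ceramidase, rose from 3.34 ± 0.28 to 4.197 ± 0.38 FPKM (log2 fold change 0.26, limma adjusted p = 0.0214). The Acer2 call was lost without the filter on low values (0.0503), without FL replicate 3 (0.0546) and without KO replicate 4 (0.0540). Acer1, the skin enzyme, was listed at 0 in every library. Samd8, which makes an analogue of sphingomyelin from ceramide, had a log2 fold change of 0.05 (limma adjusted p = 0.556). The last list held S1P transporters and receptors and Aldh3a2, the dehydrogenase that follows the lyase. Of its 5 tested genes S1pr1, a receptor abundant in endothelium, was the 1 called, as higher, in 16 of 23 alternative fits as well. This 1 of 5 stands beside 25.5% of all tested genes called in either direction and 9.05% called higher. The median log2 change of the 5 was 0.22, with Aldh3a2 at -0.03. With 4 of the 5 not called, no rise of the list is read from that median.

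In the list for ceramide transfer and glycosphingolipid synthesis, 3 of 11 tested genes fell and 1 rose (median 0.05), which is 36.4% called against 25.5% of all tested genes. Col4a3bp, which encodes the ceramide transfer protein that carries ceramide to the Golgi for Sgms1, fell from 28.3 ± 1.58 to 24.9 ± 1.78 FPKM (log2 fold change -0.18, limma adjusted p = 0.0413), a call kept in 9 of 23 alternative fits, with a log2 fold change of -0.07 under upper quartile rescaling. The lactosylceramide synthase B4galt6 fell from 26.7 ± 1.81 to 20.9 ± 1.81 FPKM (log2 fold change -0.34, limma adjusted p = 0.00417), while B4galt5, of the same activity, had a log2 fold change of 0.01 (limma adjusted p = 0.954). St3gal5, GM3 synthase, which follows them, rose from 36.6 ± 4.18 to 52.8 ± 7.01 FPKM without overlap (log2 fold change 0.51, limma adjusted p = 0.00356). Gal3st1, which sulfates galactosylceramide, fell with a log2 fold change of -0.41 (limma adjusted p = 0.00252), and Gba2, a glucosylceramidase outside the lysosome, had one of 0.16 (limma adjusted p = 0.148).

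In the lysosome, where Asah1 and Smpd1 act, 1 of 10 listed genes fell and 2 rose (median -0.02). The share of this list called lies near the 25.5% of all tested genes called (16.5% lower and 9.05% higher). Psap, the precursor of the saposins that present lipids to Asah1 and other hydrolases, fell from 942.9 ± 51.1 to 772.9 ± 20.5 FPKM without overlap (SD, n = 5, log2 fold change -0.29, limma adjusted p = 0.00166). Gla, α-galactosidase, and Gm2a, the GM2 activator, rose with log2 fold changes of 0.38 and 0.24 (limma adjusted p = 0.00717 and 0.0152). Galc, which releases ceramide from galactosylceramide, had a log2 fold change of -0.01 (limma adjusted p = 0.911).

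On the supply side, 13 of 17 genes of de novo ceramide synthesis were tested, of which 2 fell and 11 did not pass (median -0.02). The share called was 15.4%, beside 25.5% of all tested genes called and 16.5% called lower. The direction of the de novo calls depends on the scaling, with 1 lower and 3 higher under upper quartile rescaling and 2 lower and 1 higher under each of the other 3. Those that fell were Cers6, a ceramide synthase with a preference for palmitoyl chains, which fell from 13.9 ± 0.45 to 11.7 ± 0.99 FPKM (log2 fold change -0.24, limma adjusted p = 0.0128, and -0.13 with 0.0654 under upper quartile rescaling), and Degs2, a dihydroceramide desaturase that also makes phytoceramide, which fell from 24.8 ± 4.07 to 17.9 ± 2.01 FPKM (log2 fold change -0.44, limma adjusted p = 0.0173). At an unadjusted p under 0.05 in limma, 5 of the 10 breakdown and conversion enzymes passed, beside 4928 of 13065 genes. None of the 10 combined an adjusted p of at most 0.05 with a change of 1.5-fold, as 4.89% of all tested genes did, a share at which 0 of 10 says little about these enzymes.

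**Figure D5:**
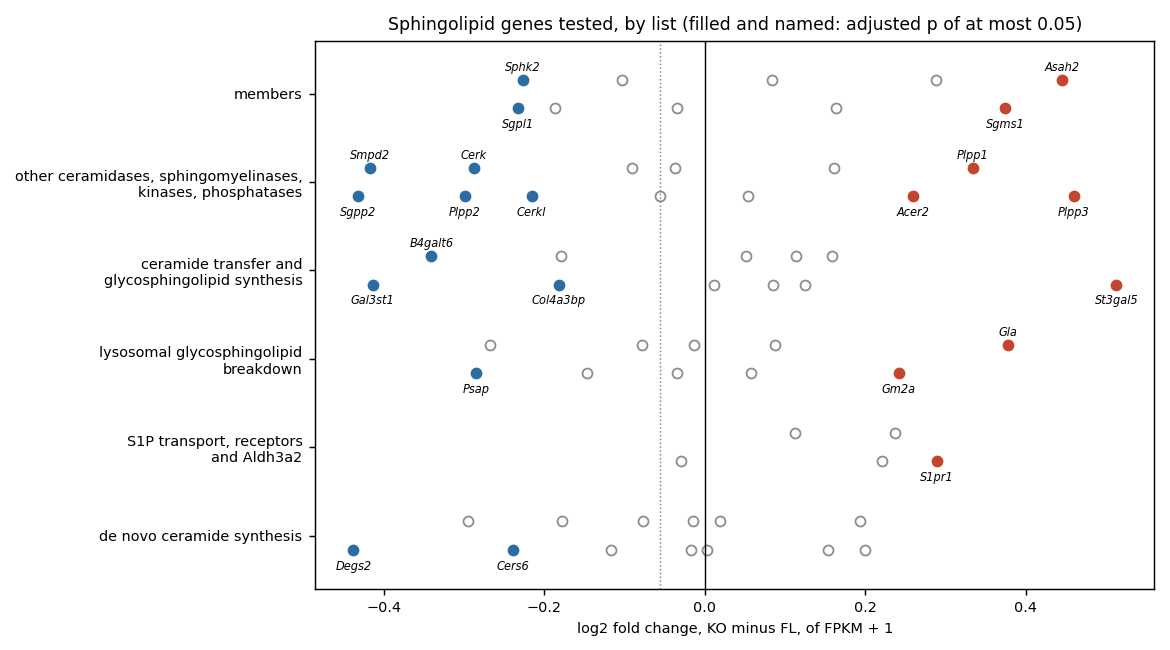
Log2 fold change in KO against FL islets (horizontal axis, log2 of FPKM + 1) of every tested sphingolipid gene, in rows by list. Filled and named points passed an adjusted p of at most 0.05 in limma, open points did not, and the dotted line marks the median of all tested genes at -0.06. Both directions occur in the member row (2 and 2), and the 2 called genes of de novo synthesis are both lower, while upper quartile rescaling gives 0 lower and 2 higher members and 1 lower and 3 higher de novo genes.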

How the data were processed

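Islet polyA RNA from 5 FL and 5 KO mice was sequenced by the authors as single-end reads from a stranded kit. The submitters' processing notes name STAR 2.5.2a, Cuffnorm 2.2.1 and the build mm10/GRCm38, and the deposited table holds FPKM values per gene and library. The annotation release, the scaling used by Cuffnorm and the use of strand in counting are not given in the sources used here. Values of exactly 0 may stand for estimates that failed.

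Groups were taken from the sample labels. Genes averaging 1 FPKM or more in either group were tested on log2(FPKM + 1) with limma 3.58.1 (eBayes with trend, R 4.3.3) and Benjamini-Hochberg adjustment, at an adjusted p of 0.05. The script was tested on simulated data. Single values and ratios were compared by two-sided exact permutation over 252 splits. Intervals are 95%. Depth was estimated from the steps between values up to 0.3 FPKM and is approximate. Members, lists and tests were chosen with earlier results of these data known. Named genes are all members, Fitm2, listed genes acting on the same lipids, and in each list up to 5 called genes without overlap. S1pr1, Aldh3a2, Plpp1 to Plpp3, Dbp, Rpl18 and the neighbours of Asah2 and Sgms1 fall outside that rule and were chosen after their values were seen. Of the genes that meet it, 1 is not reported here. Gene positions are from GENCODE M21, and 10 of 10 member identifiers matched without their version, 6 with it. Alternatives covered the pseudocount, the filter, library scaling, the limma settings, a replicate block and each mouse left out.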

Additional observations from a re-analysis of the deposited data

Results flagged for a closer look

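In 32 genes, the 5 FL and the 5 KO values were each checked for a highest or lowest mouse far from the rest by Dixon's criterion. Of 64 groups, 5 had such a mouse, and chance gives about 1 in 20, or 3.2.

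Among the members, Asah1 in FL replicate 4 was high at 321.5 FPKM, with the next FL value at 269.4 FPKM, and Sphk1 in FL replicate 1 was high at 1.66 FPKM, with the next at 0.69 FPKM. The others were Cerkl in KO replicate 2 (16.9 FPKM, lowest, next 18.6), Galc in FL replicate 4 (27.1 FPKM, highest, next 22.9) and Gla in KO replicate 2 (21.9 FPKM, highest, next 17.8).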

How the results depend on the processing

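The members called numbered 4 and ranged from 1 to 5 with each mouse left out. There were 2 without FL replicate 3 (20.2% of all genes called) and 1 without KO replicate 4 (19.5%). They numbered 2 without the low-value filter (12.6% of all genes called) and 2, both higher, with upper quartile rescaling (22.2%), which moved the median of all genes by 0.10 and, of calls it kept, took Cerk to -0.17 and Psap to -0.17. Lower calls made up 64.5% of all calls, 47.4% with median ratio, 31.0% with upper quartile, 53.3% with quantile and 52.4% with TPM rescaling. Adding a change of 1.5-fold in limma left 639 genes, 0 members, 0 other sphingolipid genes and 0 de novo genes (5, 17 and 5 had an unadjusted p under 0.05). De novo calls, 2 lower in the main analysis, were 4 with upper quartile rescaling (1 lower, 3 higher), 5 with sample weights (3 lower, 2 higher) and 2 to 4 with a mouse left out (3 lower, 1 higher without KO replicate 2). The share of all genes called was 32.7% with sample weights and 26.2% without KO replicate 2. Leaving out genes listed at 0 in a whole group, an alternative chosen after seeing the data, gave 4 members called.

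Same-numbered mice did not deviate together (correlations of their deviations from -0.10 to 0.0030), which does not show whether they were paired. The sample labels give a replicate number and no pairing. With a replicate block limma called 0 members (4 at an unadjusted p under 0.05), with Asah2, Sgpl1, Sgms1 and Sphk2 at adjusted p of 0.0569, 0.0550, 0.0591 and 0.0943, and 2368 genes (18.1%) in place of 3333. The block also ended the calls of Acer2, Plpp1, S1pr1, Col4a3bp and A1cf (0.0690, 0.0543, 0.0842, 0.109 and 0.0764).

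Some uncalled log2 fold changes took the other sign. Rescaling moved the median of all genes up by 0.10 with upper quartile, 0.057 with median ratio, 0.04 with quantile normalization and 0.038 with TPM. The cause of each change of sign was not tested. With upper quartile rescaling, Asah1 was 0.0120, Ugcg 0.0724, Smpd3 0.0477, Smpd4 0.0632, Sgpp1 0.0233 and Galc 0.0980. With median ratio rescaling, Ugcg was 0.0241, Smpd3 0.0008, Smpd4 0.0180 and Galc 0.0477. With quantile normalization, Ugcg was 0.0231, Smpd4 0.0044 and Galc 0.0439, and with TPM 0.0060, 0.0013 and 0.0293. With sample weights, Ugcg was 0.0106, B4galt5 -0.0322 and Galc 0.0485. With a mouse left out, Ugcg ranged from -0.0760 to 0.0089, Smpd4 from -0.1027 to 0.0329, B4galt5 from -0.0497 to 0.0835 and Galc from -0.0354 to 0.0356.

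With each mouse left out, the log2 ratio difference ranged from -0.46 to -0.37 for Smpd1 over the synthases, from 0.20 to 0.38 for Sgms1 over Sgms2, 0.38 to 0.68 for Sphk1 over Sphk2, -0.66 to -0.47 for Asah1 over Asah2 and -0.0930 to 0.0243 for Sgpl1 over the kinases, whose sign changed without FL replicate 4. The Smpd1 ratio stayed past the threshold each time, but groups without overlap cannot come to overlap when a mouse is removed. Its passing therefore adds little. At the depth of these libraries, Sphk1 is the member least well measured.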
